A study of Mus musculus with 3 samples.

Results

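The Kruppel-like factor genes are a family of transcription factor genes, and 10 of them are described here by the Tcf1 peaks that lay at them in regulatory T cells (Treg cells) and in conventional CD4 T cells of the mouse. The members are Klf2, Klf3, Klf4, Klf6, Klf7, Klf9, Klf10, Klf11, Klf12 and Klf13, out of 21887 protein-coding genes. A peak was counted for a member if its midpoint lay in the gene's span, or if the member was the nearest protein-coding gene within 100 kb. By this rule 15 of 7921 peaks belonged to the members, 6 of 3402 Treg peaks and 9 of 4519 conventional peaks.

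Tcf1 occupancy had been mapped by chromatin immunoprecipitation with an anti-Tcf1 antiserum and sequencing. Treg cells were sorted from the spleen as TCRb+ CD4+ CD25+ cells that carried the Foxp3-Cre-GFP reporter, and conventional cells as TCRb+ CD4+ CD25- cells without it. Both came from wild type Foxp3-Cre-GFP mice of 8 to 10 weeks, in which Foxp3 drives the reporter, and neither the number of mice nor any pooling is stated. The conventional sample is also labelled as effector cells in 1 field. Each cell type had 1 library and 1 peak list, and a library from Tcf1-deficient CD4 T cells of CD4-Cre+ Tcf1 fl/fl mice was not analysed here. The lists hold positions on the mm10 build without read counts, so the depth behind a peak is unknown and no difference between the cell types was tested. Intervals below are 95% Clopper-Pearson intervals that cover counting error over the members or peaks and not the spread between animals. Peaks at the genes of cell type markers cannot identify the cells, since the lists hold binding and not expression. Of 7 marker genes of the sorted cells, 4 had a Treg peak and 5 a conventional peak. The Tcf1 gene itself, Tcf7, had 7 Treg and 7 conventional peaks, and Lef1 had 5 and 10. Il2ra and Ctla4 had 1 peak in each list, while Foxp3 and Cd4 had 0 in both. Ikzf2 had 0 Treg peaks and 1 conventional peak. None lay at Cd79a, Lyz2 or Cd8a, genes of B cells, myeloid cells and CD8 T cells.

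Kruppel-like factors bind GC-rich DNA and CACCC boxes through zinc fingers at their C-terminus, and differ in whether their N-terminal part activates or represses transcription. In T cells the family is best known for Klf2, which keeps naive cells quiescent and maintains the receptor S1pr1 that guides their exit from lymphoid organs. Klf2 falls when the T cell receptor is engaged, and Foxo1 is a known activator of its gene. Tcf1 is an HMG-box factor that binds CTTTG-type sites and is needed for naive and memory T cells.

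Tcf1 peaks lay at the same 5 members in both lists, Klf2, Klf4, Klf7, Klf10 and Klf13, and at none of the other 5. A Treg peak was thus present at 5 of 10 members (interval 18.7% to 81.3%), against 12.3% of all protein-coding genes. A conventional peak was also present at 5 of 10 members, against 16.3% of all genes. The members were chosen with earlier results of these data known, so this and the later intervals are no test of an excess. Peaks of both lists lay at 8.17% of all protein-coding genes, and 79.6% had a peak in neither list. Each of the 5 genes had a peak of each list at its start or within 1 kb of an end of its span. The members cover more genome than most genes under the rule, with a median of 154 kb assigned to a member against 46 kb for a gene in general. Among the 3405 genes with at least as much genome as the median member, 18.1% had a Treg peak and 19.3% a conventional peak. Of the members, 5 belong to this class, and 3 of these 5 had a peak in each list.

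**Figure D1:**
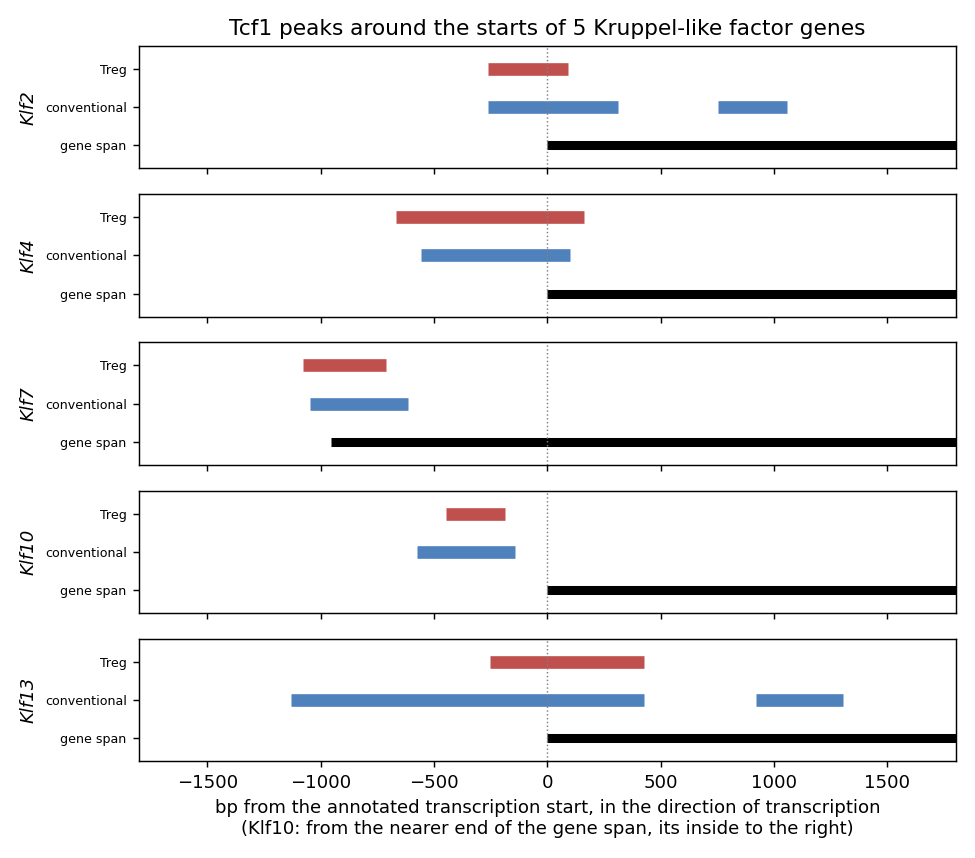
Peaks of the Treg list (red) and of the conventional list (blue) around the starts of the 5 genes with peaks; the x axis gives bp from the annotated start in the direction of transcription, black bars are gene spans, and Klf10 is drawn from the nearer end of its span. The peaks cover the annotated start at Klf2, Klf4 and Klf13, and the conventional list has an additional peak inside Klf2 and inside Klf13.

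At Klf2, Klf4 and Klf13 the peaks of both lists covered the whole promoter window of the RefSeq table, which runs from 250 bases before to 50 after the start. A whole window lay inside a peak for 3 of the 9 members in that table in each list (33.3%, interval 7.49% to 70.1%), against 1.97% of 17492 protein-coding genes in the Treg list and 4.42% in the conventional list. An overlap of any length was found at the same 3 members, against 7.11% of genes in the Treg list and 11.3% in the conventional list. The 250 bases before these starts are shown as the DNA under the peaks, with Klf3 as a member that is also rich in G and C but has no peak. They are read 5′ to 3′ on the gene's strand, from RefSeq on GRCm38.p6, the assembly behind mm10. Capitals mark the GC box GGGCGG or the Klf site forms CCACACCC and CCACGCCC, each on either strand.

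Klf2, chr8:72318812-72319061, plus strand: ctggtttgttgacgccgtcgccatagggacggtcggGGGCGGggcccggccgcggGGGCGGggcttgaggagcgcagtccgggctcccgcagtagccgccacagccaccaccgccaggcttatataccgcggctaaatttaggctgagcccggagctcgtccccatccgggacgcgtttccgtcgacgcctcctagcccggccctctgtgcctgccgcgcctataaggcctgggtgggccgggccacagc

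Klf4, chr4:55532476-55532725, minus strand: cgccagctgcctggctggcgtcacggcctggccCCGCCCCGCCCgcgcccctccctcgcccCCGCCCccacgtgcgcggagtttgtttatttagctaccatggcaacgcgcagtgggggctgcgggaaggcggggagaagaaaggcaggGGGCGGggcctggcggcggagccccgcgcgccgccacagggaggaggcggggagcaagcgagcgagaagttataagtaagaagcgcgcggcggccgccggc

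Klf13, chr7:63938916-63939165, minus strand: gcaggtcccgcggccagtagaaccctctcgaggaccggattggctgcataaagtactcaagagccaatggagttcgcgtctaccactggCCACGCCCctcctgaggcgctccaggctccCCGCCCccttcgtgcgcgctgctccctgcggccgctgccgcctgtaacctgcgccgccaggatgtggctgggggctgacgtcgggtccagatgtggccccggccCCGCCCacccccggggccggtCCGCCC

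Klf3, chr5:64803271-64803520, plus strand, no peak in either list: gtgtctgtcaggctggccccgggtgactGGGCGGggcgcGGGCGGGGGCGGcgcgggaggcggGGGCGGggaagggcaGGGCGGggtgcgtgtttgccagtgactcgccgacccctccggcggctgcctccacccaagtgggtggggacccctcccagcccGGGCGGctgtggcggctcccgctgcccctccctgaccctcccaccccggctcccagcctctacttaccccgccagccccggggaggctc

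The 3 promoters under peaks were rich in G and C, at 71.2% for Klf2, 74.0% for Klf4 and 71.6% for Klf13, against a median of 55.6% over 21263 promoters of protein-coding genes. Klf3 reached 78.4% and Klf11 76.8% without a peak. The ratio of observed to expected CpG pairs was 0.92 at Klf2, 0.94 at Klf4 and 0.76 at Klf13, against 0.599 at Klf3 and 0.92 at Klf11. Among all genes with a promoter ratio of at least 0.6, a Treg peak was present at 18.9% and a conventional peak at 26.7%, and 4 of the 7 members in that class had a peak in each list. The 2 members below that ratio, Klf3 and Klf12, had none, and Klf3 lay just under it at 0.599. Klf6, Klf9 and Klf11, above it at 0.86, 0.83 and 0.92, had none either.

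No Tcf/Lef core, CTTTGA or CTTTGT on either strand, occurred in the 250 bases of any of the 9 members, while 25.3% of all protein-coding promoters of this length held one. The interval of 0 in 9 reaches 33.6% and includes that share. Of promoters with at least 70% G and C, the class of 5 of the 9 members, 7.12% under a Treg peak and 9.80% under a conventional peak held a core, against 8.89% and 8.39% of those without the peak. Under Treg peaks the share was 20.4% against 13.5% without one at 60 to 70% G and C. It was 37.0% against 27.2% at 50 to 60%, and 40.6% against 37.4% below 50%. For conventional peaks the shares were 16.9% against 13.8%, 34.3% against 27.0%, and 38.7% against 37.4%. Over the full 300 bases 1 member, Klf6, held a core, which lay 17 to 22 bases after the start of a gene without a peak, and 28.3% of all promoters did. GC boxes, a form searched after the sequences were seen, were present 2 times at Klf2, 4 times at Klf4, 3 times at Klf13 and 6 times at Klf3, and 7 of the 9 members held at least 1, against 42.6% of all promoters. These 4 promoters all have at least 70% G and C, a class in which 92.0% of promoters under a Treg peak held a GC box, against 90.1% of those without one. For conventional peaks the shares in that class were 89.6% and 90.5%. In the Klf4 promoter 2 of the boxes overlap by 1 base. A Klf site form stood 161 to 154 bases before the Klf13 start and 217 to 210 bases before the Klf12 start, and 9.29% of all promoters held one. A match is a description of the letters in this window and not of binding. The peaks extend beyond the windows, and the sequence outside them was not used here.

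Klf2, the quiescence and homing factor, had 1 Treg and 2 conventional peaks. The Treg peak (chr8:72318798-72319153) was 356 bp wide and centred 86 bp before the start, and its conventional counterpart (chr8:72318800-72319373) was 574 bp wide and centred 25 bp after it. Both began within a few bases of each other, overlapped by 354 bp, and the conventional peak reached farther into the gene. A second conventional peak (chr8:72319814-72320119) of 306 bp was centred 905 bp after the start, inside the 2593 bp gene span and 440 bp from the first. It overlapped no Treg peak, but its midpoint lay within 1 kb of that of the Treg peak at the start. With peaks of a list closer than 1 kb merged, Klf2 had 1 peak in each list. Beyond these, the next peaks lay 39.7 kb from the gene in both lists and were assigned to Ap1m1.

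Klf4, which restrains proliferation of T cells and is also one of the factors used to reprogram cells to pluripotency, had 1 peak in each list. Its Treg peak (chr4:55532312-55533144) was 833 bp wide and its conventional peak (chr4:55532377-55533032) 656 bp, and the conventional peak lay wholly inside the Treg peak with midpoints 23 bp apart. Among the 6 pairs of overlapping peaks at the members, this was the pair in which the Treg peak was the wider one. The Treg peak was wider than 96.0% of its list and the conventional peak wider than 85.8% of its own. Both stood far from other peaks of the same list, at 1.27 Mb in the Treg list and 1.41 Mb in the conventional list. A distance greater than these was found for 5.70% of Treg peaks and 1.97% of conventional peaks.

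Klf7, a family member first described as broadly expressed, had 1 peak in each list at the upstream end of its span. The Treg peak (chr1:64122101-64122466) was 366 bp wide and the conventional peak (chr1:64122002-64122437) 436 bp, with 337 bp in common. They were centred 895 bp and 831 bp before the start in the promoter table, and their midpoints lay 61 bp (Treg) and 125 bp (conventional) from the end of the span, which reaches farther upstream than that start. Neither overlapped the promoter window. Klf10, an early gene of TGF-beta signalling also called TIEG1, had a Treg peak (chr15:38300898-38301159) of 262 bp that lay wholly inside a conventional peak (chr15:38300854-38301287) of 434 bp. Their midpoints were 318 bp and 360 bp outside the higher end of the gene span. The Treg peak was among the narrow ones, wider than 10.4% of its list, and the conventional peak was wider than 51.5% of its own.

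Long noncoding RNA genes of the same RefSeq table lie at peaks of 4 members, near an end of the gene span for Klf4, Klf7 and Klf10 and far upstream for Klf13. The span of Gm12506 begins 235 bp upstream of the Klf4 start, and the Treg peak midpoint lay inside it while the conventional midpoint lay 5 bp outside. Gm35880 held both Klf7 midpoints, which also lay in the Klf7 span, and Gm35248 held both Klf10 midpoints. Gm32633 held the farthest upstream conventional peak of Klf13, and lay 12.2 kb from both peaks of the pair about 36 kb upstream of that gene. Such peaks therefore cannot be assigned to the Klf gene over its noncoding neighbour from position. When genes of every biotype competed for peaks, Klf2, Klf7 and Klf13 remained with peaks in both lists and Klf4 and Klf10 did not. Klf13 then had 1 Treg and 2 conventional peaks.

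**Figure D2:**
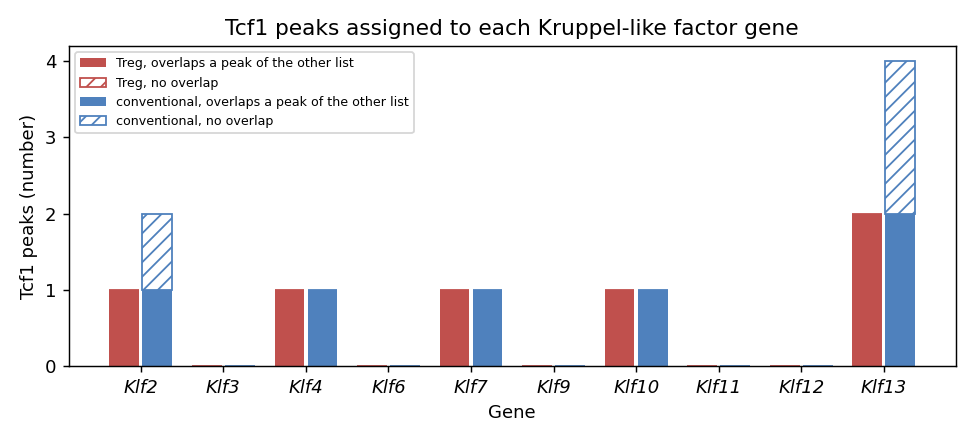
Number of Tcf1 peaks assigned to each of the 10 genes in the Treg list (red, left bars) and the conventional list (blue, right bars); filled parts share at least 1 bp with a peak of the other cell type and hatched parts do not. All 6 Treg peaks are filled, and the 3 hatched conventional peaks are at Klf2 and Klf13.

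Klf13, which drives late expression of the chemokine gene Ccl5 in T cells, had the most peaks of the members under the 100 kb rule, 2 in the Treg list and 4 in the conventional list. With a limit of 20 kb, or with peaks within 10 kb of the span, it had 1 Treg and 2 conventional peaks, the same numbers as Klf2. At the start, the Treg peak (chr7:63938487-63939168) was 682 bp wide and the conventional peak (chr7:63938487-63940044) 1558 bp. They share the same edge inside the gene, and the conventional peak reached 876 bp farther upstream, which put its midpoint 438 bp from that of the Treg peak. This conventional peak ranked 11 by width in its list and was wider than 99.8% of it, and the Treg peak was wider than 92.5% of its own. About 36 kb upstream lay a second pair, a Treg peak (chr7:63974443-63974848) of 406 bp and a conventional peak (chr7:63974461-63974893) of 433 bp with midpoints 31 bp apart.

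The other 2 conventional peaks at Klf13 overlapped no Treg peak. One (chr7:63937611-63937994) of 384 bp was centred 1112 bp inside the gene, 492 bp from the wide peak at the start. The Treg peak at the start was centred 87 bp inside the gene. With peaks of a list closer than 1 kb merged, Klf13 had 3 conventional peaks. The other of these 2 peaks (chr7:64011655-64012422) of 768 bp lay 73.1 kb upstream, inside the noncoding gene Gm32633, and was wider than 92.1% of the conventional list. With the conventional list reduced to its 3402 widest peaks, the length of the Treg list, Klf13 still had 4 conventional peaks and Klf2 had 1. The next peaks of both lists lay 133 kb from Klf13 and were assigned to Otud7a. At least 4 conventional peaks were found at 59 of 21887 genes (0.270%), and at least 2 Treg peaks at 369 (1.69%). Of all genes, 5 had the same numbers as Klf13 of Treg, conventional and shared peaks. The closest of them in summed width were Znrf3, Arid5b and Gramd3, with 1028, 1603 and 830 bp in the Treg list against 1088 bp at Klf13, and 2320, 2483 and 1878 bp in the conventional list against 3143 bp at Klf13.

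**Figure D3:**
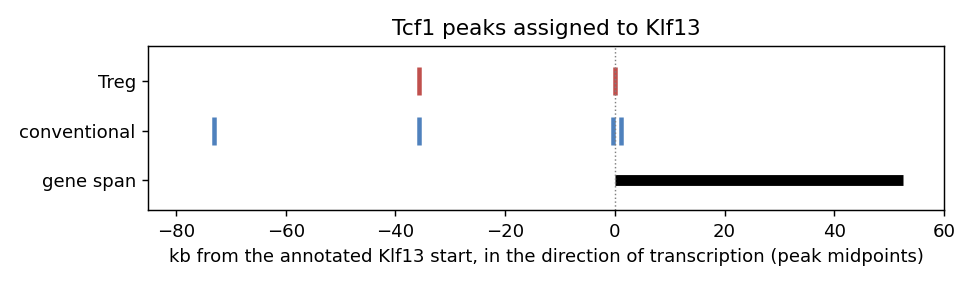
Midpoints of the peaks assigned to Klf13 in the Treg list (red) and the conventional list (blue) by distance in kb from the annotated start, with the gene span in black to the right of 0. Both lists have a peak at the start and about 36 kb upstream, and the conventional list has 2 more.

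The members without peaks differed in how far they were from the nearest one. Klf11, a TGF-beta inducible repressor related to Klf10, had peaks of both lists 34.5 kb from its span, and these were nearer to Rrm2. Klf3, a repressor that recruits CtBP, was 315 kb from the nearest Treg peak and 173 kb from the nearest conventional peak. Klf6, also known as core promoter element binding protein, was 739 kb and Klf9, a gene that responds to glucocorticoid and thyroid hormones, 1.87 Mb from the nearest Treg peak. For the conventional list these distances were 763 kb for Klf6 and 1.31 Mb for Klf9. Klf12, another repressor that binds CtBP, had the longest span of the members at 420 kb and no peak in it, the nearest being 0.82 Mb (Treg) and 0.77 Mb (conventional) away. Of the 316 protein-coding genes with a span at least as long, 22.2% had a Treg peak and 12.7% a conventional peak.

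Between the lists, the peaks at the members mostly coincided. All 6 Treg peaks overlapped a conventional peak (100%, interval 54.1% to 100%), against 56.9% of all Treg peaks. Of the 9 conventional peaks 6 overlapped a Treg peak (66.7%, interval 29.9% to 92.5%), against 42.8% of all conventional peaks. Both of these intervals include the value of the whole list, so a difference from it was not detectable with so few peaks. Of peaks within 1 kb of a gene end, 5 of 5 Treg peaks at the members were shared, against 65.3% of 1403 in the list. For the conventional list it was 5 of 6, against 42.7% of 2137. The midpoints of the 6 pairs lay a median of 53 bp apart, and those of all 1935 shared Treg peaks 59 bp. The Treg peak was the wider one in 1 of 6 pairs (16.7%), against 30.0% of all shared Treg peaks.

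Peaks at the members also lay mostly at gene ends. In the Treg list 5 of 6 had a midpoint within 1 kb of an end of the member's span (83.3%, interval 35.9% to 99.6%), against 44.0% of the 3191 Treg peaks assigned to any gene. In the conventional list it was 6 of 9 (66.7%, interval 29.9% to 92.5%), against 48.8% of 4380 assigned peaks. Here too the intervals include the value of the whole list. Widths at the members spanned 262 to 833 bp with a median of 386 bp in the Treg list, whose median over all peaks was 366 bp. In the conventional list they spanned 306 to 1558 bp with a median of 436 bp, and the whole list had 428 bp.

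**Figure D4:**
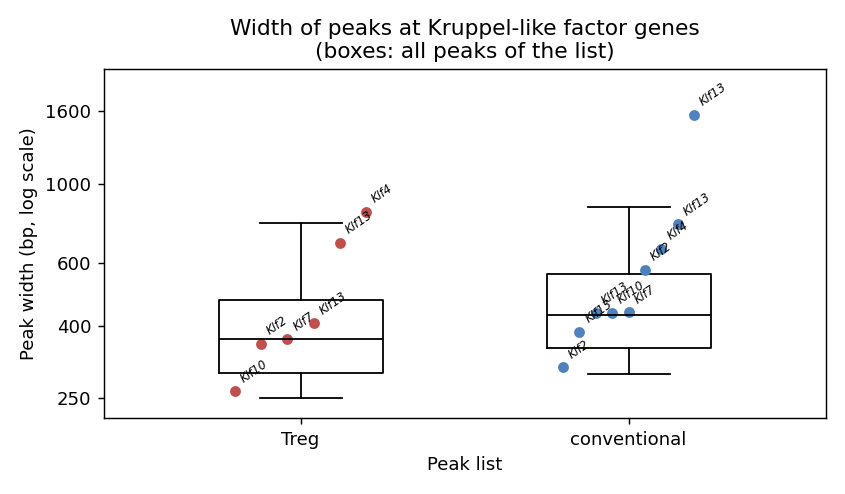
Width of each peak at a Kruppel-like factor gene (points, bp on a log scale) in the Treg list and the conventional list; boxes show the median and quartiles of all peaks of the list and whiskers the 5th and 95th percentiles. The Treg peaks at Klf4 and at the Klf13 start and the conventional peak at the Klf13 start, at 1558 bp, lie in the upper part of their lists.

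The rest of the Klf and Sp family was set beside the members, since Sp factors share the zinc finger fold and bind GC boxes. Of the 7 other Klf genes (Klf1, Klf5, Klf8, Klf14, Klf15, Klf16 and Klf17), 1 had a Treg peak and 0 a conventional peak. Their intervals (0.361% to 57.9% and 0% to 41.0%) include the 12.3% and 16.3% of all protein-coding genes. The Treg peak (chr4:117797453-117797888) lay 32.0 kb from Klf17 and had no conventional counterpart. Of the 9 Sp genes 7 had a Treg peak and 6 a conventional peak, against the same 12.3% and 16.3% of all genes. These 6 were Sp1, Sp2, Sp3, Sp4, Sp5 and Sp9 with peaks in both lists. The broadly expressed factor Sp3 had 3 peaks in each list, 2 of them shared. Sp2 had 1 Treg and 3 conventional peaks, and Sp6 had 1 Treg peak. At Sp1, Sp4, Sp5 and Sp9 the single peaks of each list were shared and at a gene end, as at Klf4, Klf7 and Klf10.

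Genes around Klf2 and its relatives were then described by 4 lists drawn from general knowledge of these pathways, with earlier results of these data known. Upstream regulators of Klf2 and of quiescence had a Treg peak at 7 and a conventional peak at 10 of 16 genes, and all 7 were among the 10. Over all protein-coding genes, 1788 of the 2691 with a Treg peak also had a conventional peak. Foxp1, a quiescence factor, had 1 Treg and 3 conventional peaks, and Mef2d and Fbxw7, a factor of the Mef2 family and a ubiquitin ligase subunit, had 2 in each list, all shared. Foxo1, Foxo3 and Akt2 had 1 in each list, of which those at Akt2 were shared, and Map2k5, Mef2a and Hdac5 had 1 conventional peak each.

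Trafficking and quiescence genes, among them known Klf2 targets, had a Treg peak at 8 and a conventional peak at 10 of 16 genes, and all 8 were among the 10. S1pr1, the egress receptor and a direct Klf2 target, had 0 Treg and 3 conventional peaks. Ccr7, which brings T cells into lymph nodes, had 2 Treg and 5 conventional peaks. Prdm1, which encodes the repressor Blimp-1, had 2 Treg and 3 conventional peaks, and Cd69, whose product removes S1pr1 from the cell surface, had 2 Treg peaks and 1 conventional peak. Peaks in both lists were also found at Il6ra, Cdkn1a, Cdkn1b and Plaur, and Tob1 had 1 conventional peak.

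Cofactors of Kruppel-like factors had a Treg peak at 3 and a conventional peak at 7 of 14 genes. The acetyltransferase gene Ep300 had 3 Treg and 2 conventional peaks, and Ctbp1, the corepressor that Klf3 and Klf12 recruit, and the deacetylase gene Hdac2 had 1 shared peak in each list. Sin3a, Crebbp, Kat2b and Ncor1 had 1 conventional peak each. TGF-beta signalling, in which Klf10 and Klf11 act, had a Treg peak at 7 and a conventional peak at 8 of 11 genes. The signal transducer gene Smad3 had 4 Treg and 3 conventional peaks, and the inhibitor gene Smad7 had 3 Treg and 2 conventional peaks. The receptor genes Tgfbr2 and Tgfbr3 each had 0 Treg and 4 conventional peaks. Of the others, Tgfb1, Smad4, Ski and Skil had peaks in both lists and Smad2 had 1 Treg peak. These counts stand against the same 12.3% of genes with a Treg peak and 16.3% with a conventional peak, and they were not tested.

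**Figure D5:**
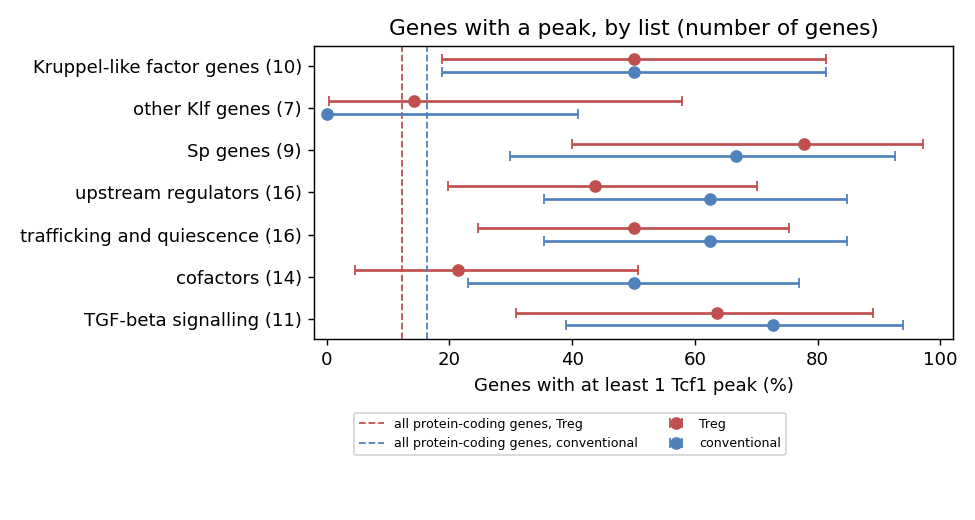
Share of genes with at least 1 Tcf1 peak (x axis, percent) in the Treg list (red) and the conventional list (blue) for the 10 members and 6 other gene lists, with 95% Clopper-Pearson intervals as bars and the share of all protein-coding genes as dashed lines. The members stand at 5 of 10 in each list, and the other Klf genes at 14.3% in the Treg list and 0% in the conventional list. The gene lists were chosen with earlier results of these data known, so the bars are no test against the dashed lines.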

How the data were processed

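Tcf1 chromatin immunoprecipitation was represented by 2 peak lists, 1 of Treg cells and 1 of conventional CD4 T cells. The deposited files hold a chromosome, a start and an end for each peak, and no other column. The submitters' processing notes list the build mm10 and, without roles, the tools FastQC, Bowtie2 2.3.4.1 and MACS2 2.1.1. The file names call the peaks filtered, while the filter and the control library, if any, are not stated there. Where calling depends on depth, the number and width of peaks can change with it.

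Genes were spans of a RefSeq table of GRCm38.p6, and starts and sequences came from a RefSeq promoter table of the same assembly, which held 9 of the 10 members (not Klf10). All 84 genes of the other lists matched by symbol. Peaks were shared if they overlapped by at least 1 bp. Positions are 1-based. The stretch of genome assigned to each gene was measured in steps of 1 kb. Computation used Python 3.11.15, numpy 2.4.6, pandas 2.3.3, scipy 1.17.1 and matplotlib 3.10.9, and the assignment and overlap steps were tested on simulated data.

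The members and the gene lists were chosen with earlier results of these data known. All members are named whatever their peaks, as are the Klf and Sp genes with a peak and, from each further list, the genes with a peak, with values for up to 4 with the most peaks and for some others. Values for further genes were given as members of small counts, chosen after they were seen. Some genes counted in these lists are not reported here by name. With 1 library for each cell type no test was made. Alternatives kept the 1701 widest Treg and 2259 widest conventional peaks or cut the conventional list to 3402, defined overlap or gene assignment otherwise, or merged nearby peaks.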

Additional observations from a re-analysis of the deposited data

How the results depend on the processing

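The same 5 members had peaks in both lists with a limit of 20 kb, with all peaks within 10 kb of the spans and with nearby peaks merged. They also did with the conventional list cut to 3402 peaks, the length that the Treg list already had. The definition of overlap does not enter the assignment to genes, so it could change only the shared peaks. With an overlap of at least 50% of both peaks, 5 of 6 Treg and 5 of 9 conventional peaks were shared. With midpoints within 1 kb, it was 6 of 6 and 7 of 9. With peaks of a list closer than 1 kb merged, it was 6 of 6 and 6 of 7. The exceptions were as follows. Among the 1701 widest Treg peaks, Klf2 and Klf10 lost their Treg peak, so that 3 members had one, with 3 of 4 peaks at gene ends. With genes of every biotype, 3 members had a peak in each list, with 3 Treg peaks, all 3 at gene ends, and 5 conventional peaks. Without Klf13, an alternative added after seeing the data, 5 conventional peaks were left. Of 74 values recomputed, 66 stayed within 1.5 times the count or within the interval of the value reported and 8 did not. Of 120 counts for single genes 105 stayed and 15 did not. All 15 were at Klf2, Klf4, Klf10 or Klf13, and Klf13 had 1 Treg and 2 conventional peaks within 20 kb. The 105 include every count of Klf3, Klf6, Klf9, Klf11 and Klf12, which had no peak under any setting. Most alternatives only drop, merge or reassign peaks, so these counts could hardly move. The 105 therefore overstate how stable the counts of genes with peaks were. No paired analysis was possible because each cell type had 1 library. Depth is unknown, so a peak missing from a list is not shown to be absent from the cells.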

Other observations

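Across all promoters of protein-coding genes, the share with a longer Tcf/Lef form (CTTTGATG, CTTTGATC, CTTTGTTC or CTTTGTTG, either strand, in the 250 bases before the start) depended on base composition. Among promoters with 60 to 70% G and C, 4.94% of the 587 overlapped by a Treg peak held one (interval 3.33% to 7.02%), against 1.34% of the 4613 others (1.03% to 1.72%). In the conventional list it was 3.24% of 895 (2.18% to 4.62%), against 1.44% of 4305 others (1.11% to 1.84%). At 50 to 60% the shares were 10.6% against 3.38% for Treg peaks and 7.86% against 3.34% for conventional peaks. Below 50% they were 13.5% against 5.78% and 12.3% against 5.74%. In these 2 classes too the intervals with and without a peak did not overlap. At 70% and above, the class of Klf2, Klf3, Klf4, Klf11 and Klf13, it was 1.78% of 337 promoters under a Treg peak (0.656% to 3.83%), against 1.08% of 2226 others. The intervals overlap in that class, and in the conventional list the shares were 1.40% and 1.11%.

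The Klf site forms CCACACCC and CCACGCCC stood in 19.0% of the promoters at 70% and above that a Treg peak overlapped (14.9% to 23.6%), against 12.3% of the others (upper limit 13.7%). For conventional peaks it was 15.2% (12.2% to 18.7%), against 12.7% of the others (11.3% to 14.2%). In the other classes the intervals of promoters with and without a Treg peak overlapped, with 17.4% under a Treg peak against 15.2% at 60 to 70%, 9.82% against 8.82% at 50 to 60%, and 4.17% against 3.53% below that. Promoters are not independent replicates, and these shares describe 1 library of each cell type.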
